A study of Mus musculus with 6 samples.

Results

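The deposited table holds 54 genes of islets, compared between diets. Described here are 5 of these genes, each for a metabolic protein: Oat, Me3, Selenbp1, Abcd2 and Aoc2. They were taken by name, and their identifiers were matched to mouse symbols. The 54 rows themselves appear to have been picked on the same diet comparison in the same libraries, as all have deposited p-values of at most 0.00999. The diet differences below are therefore a description of these genes, with no test. Islets, the endocrine cell clusters of the pancreas, came from C57BL/6 mice on normal food (control diet, 3 libraries) or high-fat food (high-fat diet, 3 libraries), a common way to make this strain obese. The labels give 22 weeks of either diet and the series' design text gives 27. No transgene, drug or other treatment is named for either group, and neither the age nor the sex of the mice, nor how many stand behind a library, is given in the sources used here. Replicates may thus be separate animals, pools or repeat preparations, and their spread is that between these libraries. The values are FPKM, fragments per length of transcript and per depth of library, for whole genes. The depth behind them is unknown.

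The 5 proteins work in different branches of metabolism. Oat, ornithine aminotransferase, is an enzyme of the mitochondrial matrix that moves an amino group between ornithine and glutamate and so links the urea cycle amino acids to proline and glutamate. Oat is also counted among the genes that normal beta cells keep low. Me3 is the mitochondrial malic enzyme that uses NADP+ to turn malate into pyruvate, with NADPH as a product. Cycling between pyruvate and malate has long been studied in beta cells as a source of signals for insulin release. Selenbp1 binds selenium and oxidises methanethiol, a sulfur compound, with hydrogen peroxide among the products. Abcd2 sits in the peroxisomal membrane and brings very long-chain fatty acids, bound to coenzyme A, into the peroxisome for shortening. Aoc2 is a copper-containing amine oxidase, first described in human retina, which turns primary amines into aldehydes, ammonia and hydrogen peroxide.

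Oat and Selenbp1 had lower means on the high-fat diet, 2.55-fold and 1.99-fold, and Me3, Abcd2 and Aoc2 had higher means, 2.69-fold, 2.26-fold and 1.85-fold. No member was listed at 0 in any library. The libraries of the diets did not overlap for any of the 5 genes. Among all 54 rows, the libraries did not overlap in 61.1% with the high-fat diet higher and in 33.3% with it lower, 94.4% in all. The rows appear to have been picked for such differences. The median size of the log2 ratio of means was 1.18 for the 5 genes and 1.13 for all 54 rows. In bulk islets, fewer cells of a type and less RNA per cell cannot be told apart.

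**Figure D1:**
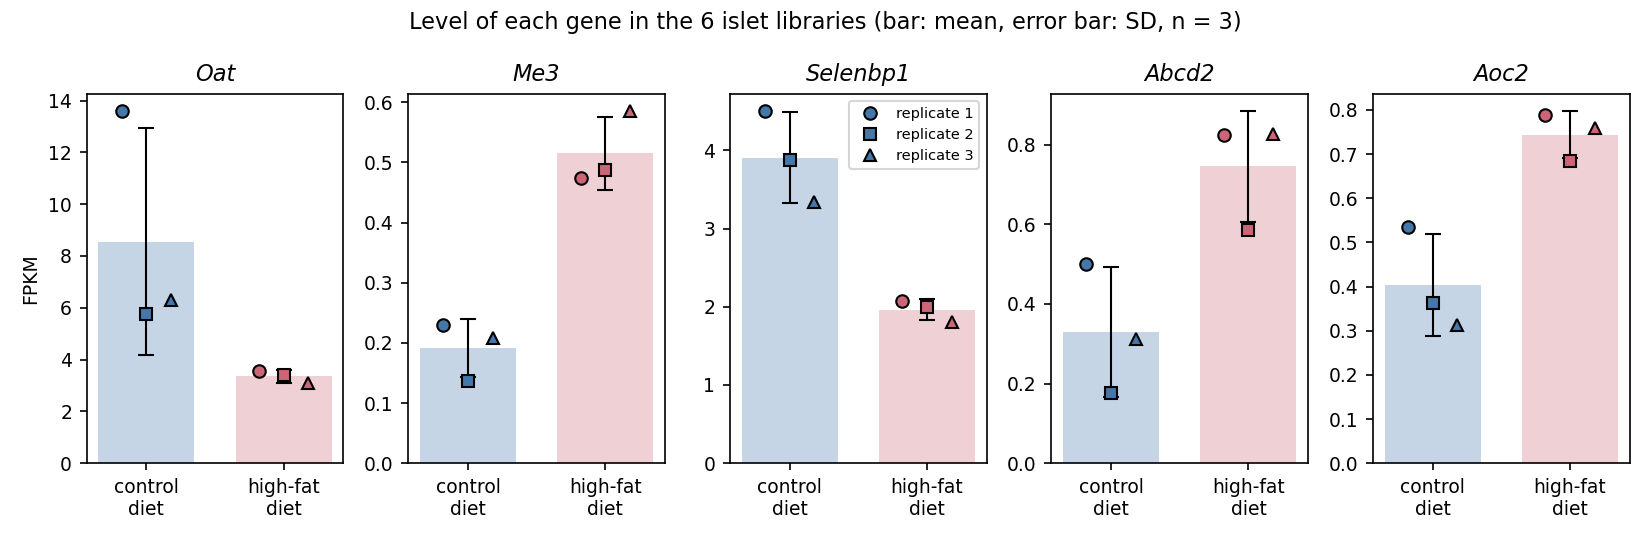
FPKM of each of the 5 genes (1 panel per gene, each with its own linear axis from 0) in the 3 control diet and 3 high-fat diet libraries. Bars are means and error bars SDs over 3 libraries, and the marker shape gives the replicate number, which pairs nothing between diets. Control diet replicate 1 (circle) is the highest control library in all 5 panels.

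The genes that lay lower on the high-fat diet were also the most abundant of the 5. Oat was measured at 13.6, 5.77 and 6.28 FPKM in control libraries 1, 2 and 3, against 3.57, 3.41 and 3.08 FPKM in the 3 high-fat libraries. Every high-fat library lay below every control library, and control replicate 1 stood far above the other controls. The mean was 8.55 ± 4.38 FPKM (SD, n = 3) in control and 3.35 ± 0.246 FPKM (SD, n = 3) in high-fat libraries, a log2 ratio of -1.35. Without control replicate 1 the log2 ratio was -0.85. The spread was wide in control libraries, with an SD of 51.2% of the mean, and narrow in high-fat libraries, at 7.34%. The lowest control library was still 1.62-fold above the highest high-fat library.

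Selenbp1, the methanethiol oxidase, was at 4.501, 3.88 and 3.34 FPKM in the control libraries, against 2.07, 1.999 and 1.81 FPKM in the high-fat libraries. The 3 libraries of each diet lay close together, with SDs of 14.9% and 6.87% of the mean. The mean moved from 3.91 ± 0.583 to 1.96 ± 0.135 FPKM (SD, n = 3 each), a log2 ratio of -0.99 that ran from -1.10 to -0.88 when any 1 library was left out. The gap between the diets, from the lowest control to the highest high-fat library, was 1.61-fold. Of the 18 rows that were lower on the high-fat diet, Oat had the 11th and Selenbp1 the 14th largest difference. Both ranked high by level, 10th and 14th of the 54 rows by mean FPKM. Of these 18 rows, 14 had a mean below 1 FPKM, as the plot of differences against level shows.

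Reads can be shared between close relatives, and this bears on Selenbp1 more than on the other 4 genes. Its coding sequence is 98.7% identical to that of Selenbp2, a relative on the same chromosome, with 18 mismatches over 1416 bases and no gap. The first 60 coding bases of both (GENCODE M21 transcripts, read from the start codon) are printed to show how little tells them apart, with mismatches in capitals.

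Selenbp1: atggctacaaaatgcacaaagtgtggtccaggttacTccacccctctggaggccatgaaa

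Selenbp2: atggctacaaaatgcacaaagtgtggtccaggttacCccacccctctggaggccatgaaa

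There is 1 mismatch in this stretch. Of the 1663 windows of 50 bases along the coding transcript of Selenbp1, 52.3% occur unchanged in Selenbp2 transcripts, as do 21.3% of windows of 100 bases and 6.97% of windows of 150 bases. Neither the read length nor the treatment of reads with several matches is given in the sources used here, so the level of Selenbp1 is uncertain to that extent. Selenbp2 was not analysed here.

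Me3, Abcd2 and Aoc2 were low transcripts, each below 1 FPKM in all 6 libraries. Me3 was at 0.230, 0.137 and 0.208 FPKM on the control diet, whereas the high-fat libraries stood at 0.474, 0.487 and 0.585 FPKM. The lowest high-fat library was 2.06-fold above the highest control, the widest gap of the 5 genes in FPKM as deposited; after division by library medians it was 1.15-fold. The mean was 0.192 ± 0.0485 FPKM on the control diet and 0.515 ± 0.0608 FPKM on the high-fat diet (SD, n = 3 each), a log2 ratio of 1.43 and the 9th largest of the 36 rows that were higher. Leaving out any 1 library gave 1.23 to 1.58.

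Abcd2, the peroxisomal fatty acid transporter, was at 0.501, 0.175 and 0.312 FPKM with normal food and reached 0.824, 0.585 and 0.827 FPKM with high-fat food. The controls spread 2.86-fold from lowest to highest. Control replicate 1 came close to high-fat replicate 2, and the gap between the diets was 1.17-fold, the narrowest of the 5 genes in FPKM as deposited. The mean was 0.330 ± 0.164 and 0.745 ± 0.139 FPKM (SD, n = 3 each), a log2 ratio of 1.18 that ran from 0.87 without control replicate 2 to 1.61 without control replicate 1.

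Aoc2, the amine oxidase, was at 0.534, 0.362 and 0.314 FPKM with normal food, and at 0.788, 0.685 and 0.759 FPKM with high-fat food. Its high-fat libraries lay within 1.15-fold of each other, and the gap between the diets was 1.28-fold. The mean was 0.403 ± 0.116 and 0.744 ± 0.0532 FPKM (SD, n = 3 each), a log2 ratio of 0.88 that ran from 0.73 to 1.14 when any 1 library was left out. Abcd2 and Aoc2 had the 14th and 22nd largest differences of the 36 rows that were higher.

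The nearest relative of Aoc2 is its neighbour Aoc3, which encodes an amine oxidase of blood vessels and fat cells. The first 60 coding bases of both are printed in the same way, as a contrast to the Selenbp pair.

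Aoc2: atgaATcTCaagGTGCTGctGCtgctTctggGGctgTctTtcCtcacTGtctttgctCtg

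Aoc3: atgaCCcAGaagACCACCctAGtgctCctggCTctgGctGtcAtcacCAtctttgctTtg

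These differ at 21 of 60 bases. The 2 coding sequences are 77.1% identical over aligned bases, and 4.89% of the 50-base windows of Aoc2 occur in Aoc3 transcripts.

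**Figure D2:**
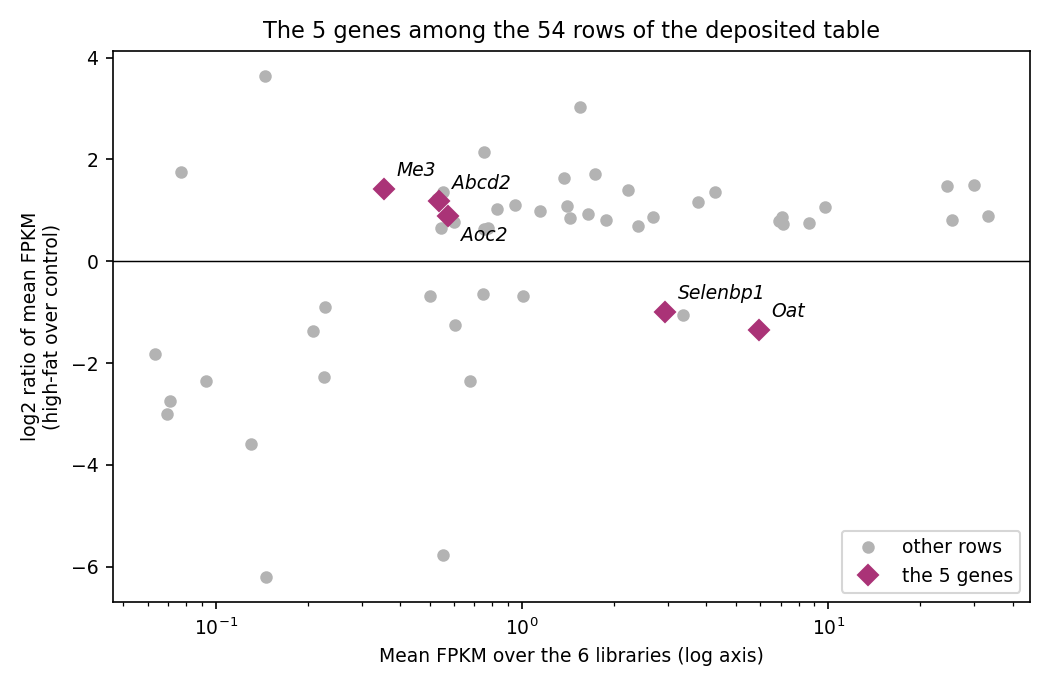
The diet difference as a log2 ratio of means (high-fat over control, y axis) against mean FPKM over the 6 libraries (x axis, log scale) for the 54 deposited rows, with the 5 genes as diamonds and the other rows as grey points. Oat and Selenbp1 lie below 0 and above 1 FPKM. Me3, Abcd2 and Aoc2 lie above 0 and below 1 FPKM.

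FPKM is scaled by transcript length, so levels of different genes can be set side by side, within the limits of the lengths used. The annotation behind those lengths is not given. The merged exons of Me3 hold 14624 bases and its coding transcript 4485, so its level depends on the length used. On the control diet the order was Oat, Selenbp1, Aoc2, Abcd2 and Me3. Oat lay above Selenbp1 in all control libraries, and Selenbp1 stood 9.68-fold above Aoc2 by mean FPKM. The ranges of Aoc2 and Abcd2 overlapped, as did those of Abcd2 and Me3, although within each control library Aoc2 lay above Abcd2 and Abcd2 above Me3. The ratio of Abcd2 to Aoc2 was 0.938, 0.483 and 0.995 in those libraries. On the high-fat diet the ratio of mean FPKM between Selenbp1 and the next gene, Abcd2, was 2.63. Abcd2 and Aoc2 had means of 0.745 and 0.744 FPKM there, and their ratio of 1.05, 0.853 and 1.09 lay on both sides of 1. Me3 lay below both within every high-fat library, while its range overlapped that of Abcd2 and not that of Aoc2. Oat ranked 4th, 5th and 5th of the 54 rows in the control libraries and 12th, 12th and 16th in the high-fat libraries. Me3 ranked 47th, 46th and 46th in control and 39th in each high-fat library.

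Control replicate 1 was the highest control library for all 5 genes and for 46 of the 54 rows. The median FPKM over the 54 rows came to 1.09, 0.548 and 0.642 for the control libraries, against 1.27, 0.982 and 1.304 for the high-fat libraries. The level of the table as a whole thus differed between libraries and between diets, and its part in the differences was not tested. Because the high-fat mean was the higher in 36 of the 54 rows, these medians hold diet differences as well. Division by the library median moved the median log2 ratio of all rows from 0.81 to 0.12. After this division Oat was 3.79-fold and Selenbp1 3.24-fold lower on the high-fat diet. Me3 was then 1.68-fold and Abcd2 1.49-fold higher, both with no overlap between diets. The gap between the nearest libraries of the diets was then 2.82-fold for Oat, 2.02-fold for Selenbp1, 1.22-fold for Abcd2 and 1.15-fold for Me3, so the order of the gaps differed from that in FPKM as deposited. Aoc2 was 1.16-fold higher on this scale, and its diets overlapped, at 0.475, 0.644 and 0.475 against 0.605, 0.679 and 0.567 with high-fat food.

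**Figure D3:**
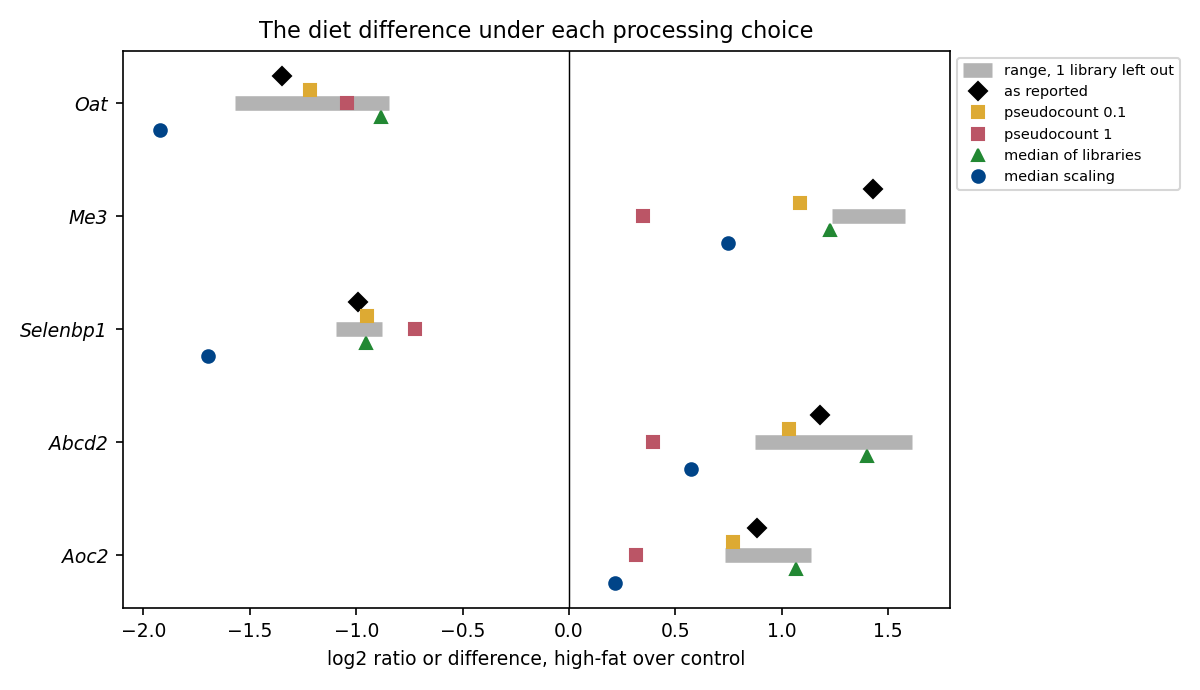
The diet difference of each gene (x axis, log2 ratio or log2 difference, high-fat over control) as reported, with a pseudocount of 0.1 or 1 FPKM, with medians in place of means, and after division by library medians. Grey bars span the values with 1 library left out. Every value keeps its side of 0, which only division by library medians could have changed, as the libraries of the diets did not overlap. That division moves Oat and Selenbp1 away from 0 and the other genes toward it.

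A ratio of 2 genes within a library does not depend on how that library was scaled. Of the 10 pairs, 6 join a gene that was lower with a gene that was higher on the high-fat diet, and their ratios must separate the diets because the genes do. The ratio of Oat to Me3, the enzymes of ornithine and malate in the mitochondrion, was 59.1, 42.1 and 30.2 with normal food, against 7.52, 6.996 and 5.27 with high-fat food. The ratio of Selenbp1 to Aoc2 was 8.43, 10.7 and 10.6 with normal food, against 2.63, 2.92 and 2.38 with high-fat food. In the other 4 pairs, of genes that lay on the same side, the diets overlapped. The ratio of Me3 to Abcd2 was 0.636 ± 0.164 on the control diet and 0.705 ± 0.128 on the high-fat diet (SD, n = 3 each).

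The rows most like each gene were found by the root-mean-square difference of log2(FPKM + 0.1) over the 6 libraries, each gene centred on its mean. Grik2, a kainate receptor subunit, was the nearest row to Oat, at 0.29, and the second nearest to Selenbp1, at 0.22. The nearest to Selenbp1 was Itgb6, an integrin beta subunit, at 0.19, and Clec11a, a secreted lectin, was the second to Oat, at 0.31. Grik2, Itgb6 and Clec11a were low, with means of 0.116, 0.159 and 0.0305 FPKM in the high-fat libraries. At such levels the added 0.1 FPKM shrinks the diet difference. Clec11a was at 0 in high-fat replicate 2, and its mean was 5.09-fold lower on the high-fat diet, against 2.55-fold for Oat. Crb1, a cell polarity gene of the retina, was the nearest to Me3, at 0.090. Irf2bp2, a transcriptional corepressor, came second for Me3, at 0.20, and first for Aoc2, at 0.071. The mean of Irf2bp2 was 1.74-fold higher on the high-fat diet, against 2.69-fold for Me3 and 1.85-fold for Aoc2. Mapkapk3, a protein kinase downstream of p38, was second for Aoc2, at 0.072. Pcyox1l and Fkbp5, a chaperone of steroid receptors, were nearest to Abcd2, at 0.11 and 0.13. A typical row differed by a median of 1.03 from Oat, 0.90 from Selenbp1, 0.34 from Me3, 0.37 from Abcd2 and 0.39 from Aoc2. Most rows, 36 of 54, moved opposite to Oat and Selenbp1 and the same way as the other genes described. Among pairs of the 5 genes, those of opposite direction differed by 0.87 to 1.20 and those of the same direction by 0.24 to 0.33. The medians for Oat and Selenbp1 thus largely restate direction, and give no measure of likeness beyond it. With a pseudocount of 1 FPKM, 1 of these 10 pairs of a member and a near row was found again.

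The wider pathways could hardly be followed in the deposited table. Lists were drawn up for ornithine, arginine, proline and polyamine metabolism (20 genes), pyruvate cycling and NADPH supply (18 genes), sulfur and selenium metabolism (18 genes), peroxisomal fatty acid oxidation (20 genes), amine oxidases and aldehyde removal (14 genes) and genes kept low in beta cells (16 genes). Each list held 1 of the 54 rows, which was Oat, Me3, Selenbp1, Abcd2, Aoc2 and again Oat. Other members of these lists were not analysed here. None of 11 lists of markers for islet endocrine, acinar, duct, endothelial, stromal, immune, fat or mesothelial cells had a gene among the 54 rows, so the labelled tissue was not checked against its markers. These lists were short, with 3 mesothelial and 4 stromal genes, and the table does hold other genes known from mesothelial or stromal cells. Among them, chosen after their values were seen, Upk1b, Igfbp6 and Has1 had lower means on the high-fat diet, as Oat and Selenbp1 did, with log2 ratios of -2.996, -5.77 and -0.68. Their mean levels over the 6 libraries were low, at 0.0694, 0.553 and 1.01 FPKM, and 18 of all 54 rows were lower. The part of mesothelial or stromal cells in the differences of Oat and Selenbp1 was not tested.

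The genes lie on 4 chromosomes of the GRCm38 build (GENCODE M21), and all are protein-coding. Oat (ENSMUSG00000030934) lies on chromosome 7 from 132557478 to 132576398 on the minus strand, and Me3 (ENSMUSG00000030621) on chromosome 7 from 89632392 to 89854359 on the plus strand. Selenbp1 (ENSMUSG00000068874) lies on chromosome 3 from 94933056 to 94944758 on the plus strand, and Abcd2 (ENSMUSG00000055782) on chromosome 15 from 91145871 to 91191799 on the minus strand. Aoc2 (ENSMUSG00000078651) lies on chromosome 11 from 101325063 to 101329702 on the plus strand, 902 bases before Aoc3. Exons of Me3 share 569 bases, 3.89% of its merged exons, with the antisense gene A230065N10Rik. No strand setting is stated, and reads from this stretch could belong to either gene. The other 4 genes share no exon base with another annotated gene.

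Of the 50-base windows along the coding transcripts, none of Oat, 0.657% of those of Abcd2 and 7.84% of those of Me3 were found in transcripts of any other gene, and none of them in the relatives compared. Those relatives were Abat, Agxt2 and Etnppl for Oat, Me1 and Me2 for Me3, and Abcd3 and Abcd4 for Abcd2.

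**Figure D4:**
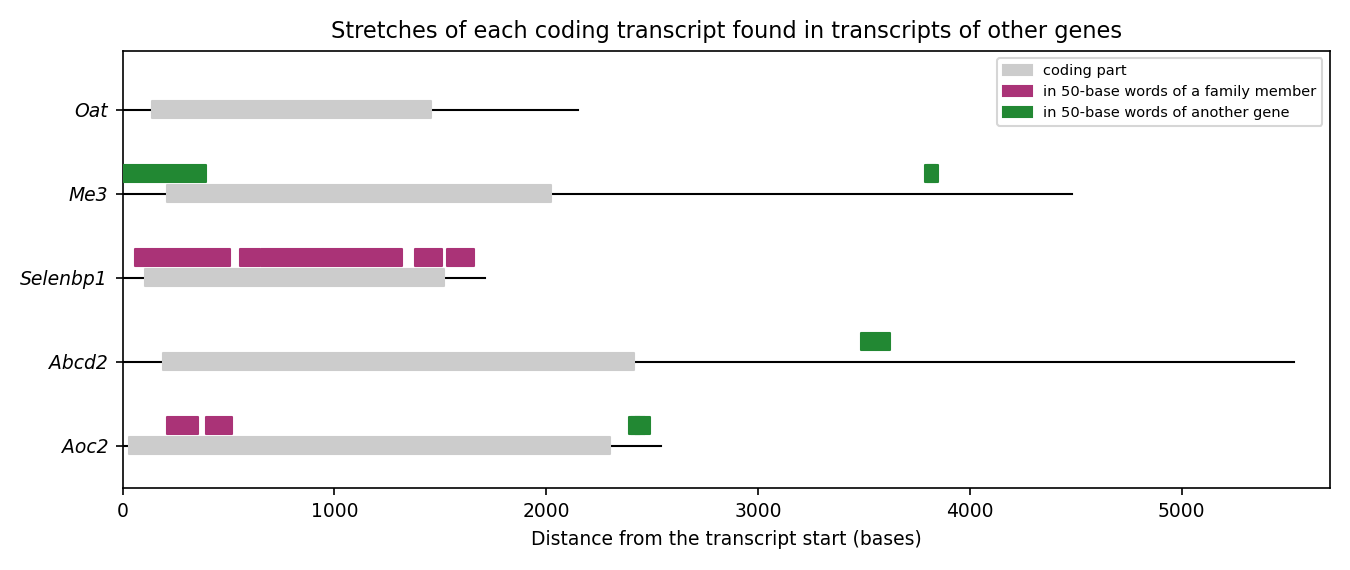
The longest coding transcript of each gene drawn to scale (x axis, bases from the transcript start), with the coding part in grey and stretches made of 50-base windows that also occur in transcripts of a family member (purple) or another gene (green) above it. Selenbp1 is covered by purple along most of its length, Oat has no shared stretch, and the green stretch at the start of Me3 spans bases 1 to 392.

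Promoters of 4 of the 5 genes were matched by gene ID in RefSeq (GRCm38.p6), each as 250 bases before to 50 after the gene's start; that of Abcd2 was not used here. Windows are shown for both genes that were lower on the high-fat diet and for Aoc2, which was higher, with every match to the motifs searched in capitals. The window of Me3, which was also higher, held no match and is not printed.

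Oat, chr7:132576349-132576648, minus strand: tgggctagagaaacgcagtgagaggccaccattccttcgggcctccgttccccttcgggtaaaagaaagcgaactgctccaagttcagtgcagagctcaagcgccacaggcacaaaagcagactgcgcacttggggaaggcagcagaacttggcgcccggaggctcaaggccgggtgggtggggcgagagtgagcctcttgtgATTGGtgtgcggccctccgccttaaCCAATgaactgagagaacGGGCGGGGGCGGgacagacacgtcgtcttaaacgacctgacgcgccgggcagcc

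Selenbp1, chr3:94932833-94933132, plus strand: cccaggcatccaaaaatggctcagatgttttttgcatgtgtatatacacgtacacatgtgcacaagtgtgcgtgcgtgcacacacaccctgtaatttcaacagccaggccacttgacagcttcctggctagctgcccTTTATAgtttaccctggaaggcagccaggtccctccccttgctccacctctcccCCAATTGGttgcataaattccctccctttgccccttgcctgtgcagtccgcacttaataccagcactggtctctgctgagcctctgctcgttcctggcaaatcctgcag

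Aoc2, chr11:101324813-101325112, plus strand: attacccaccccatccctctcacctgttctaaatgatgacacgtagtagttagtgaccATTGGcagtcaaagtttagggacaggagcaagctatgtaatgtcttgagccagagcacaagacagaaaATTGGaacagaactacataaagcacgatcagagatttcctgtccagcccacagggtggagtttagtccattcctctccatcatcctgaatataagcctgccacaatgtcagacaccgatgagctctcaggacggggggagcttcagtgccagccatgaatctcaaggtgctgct

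Of the 4 windows searched, these 3 each hold the CCAAT box (CCAAT on either strand) 2 times, and that of Me3 does not hold it. In Oat the matches begin at positions -47 and -22 from the gene's start and lie on opposite strands. In Selenbp1 they begin at -59 and -56, overlap and also lie on opposite strands. In Aoc2 they begin at -192 and -124, on the same strand. Of 32851 mouse promoter windows of the same length, 37.4% hold the box, 11.7% hold it at least 2 times and 5.80% hold it on both strands. Oat also holds the GC box (GGGCGG) 2 times, at -4 and 3, which 35.7% of windows hold at least once. Selenbp1 holds TATAAA, the TATA box letters, on the opposite strand at -113, found in 13.6% of windows. The letters searched without a match in the 4 windows, on both strands, were CACGTG (E-box, 7.15% of all windows), TGACGTCA (cAMP response element, 1.79%), TGACNNNGC (antioxidant response element, 12.4%) and TGANTCA (AP-1 site, 7.81%); a direct repeat of nuclear receptor sites, which 0.0396% of windows hold, had no match either. Me3, whose window held none of the 8 motifs, starts in RefSeq within the span of the antisense gene A230065N10Rik. The windows of Oat and Me3 were richer in G and C, at 61.7% and 62.7%, than those of Selenbp1 and Aoc2, at 53.0% and 48.3%, against a median of 52.7% over all windows. A match is a run of letters and not a shown binding site.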

How the data were processed

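RNA of 6 islet preparations was sequenced from total RNA libraries, per the labels' protocols. The authors deposited 1 table with an FPKM column per library for 54 genes, the mean and SD of each diet, p-values, log2 fold changes, effect sizes and a score, per the file headers. Trimmomatic 0.36, HISAT2 2.1.0, StringTie 1.3.3 and GRCm38 are named in the submitters' processing notes, with no role or order. No source used here gives the annotation, the strand setting, the test behind the deposited p-values or the rule that picked the rows. In the authors' deposited table the p-values of the 5 genes ran from 0.0027 (Aoc2) to 0.0098 (Oat). The deposited log2 fold changes of all 54 rows were equal to the log2 ratio of mean FPKM within 1e-09; the deposited score was not used.

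Here means, SDs and log2 ratios of mean FPKM, with no pseudocount, were computed (Python 3.11.15, numpy 2.4.6, pandas 2.3.3). The log2 ratios, the calls of no overlap and the search for like rows were tried on simulated data. The simulated spread was smaller than that of the 5 genes, and the pseudocount for like rows was far below 0.1 FPKM. All 54 identifiers had a symbol. A minimum mean of 1 FPKM, tried as a filter, is passed by 2 of the 5 genes. No test was run, because the rows appear to have been picked on the same contrast. With 3 libraries per diet the smallest p of an exact two-sided permutation test is 0.1. The members, lists and motifs were chosen with earlier results of these data known. The rule for named genes was the 5 members, the 2 rows most like each, and rows in the lists. Upk1b, Igfbp6 and Has1 were named outside this rule. Rows called not overlapping had the lowest library of either diet above the highest of the other. Coding sequences were aligned globally (Biopython 1.88) in place of the planned protein alignment, for which no protein table was used here. Windows of 50 bases were sought in all GENCODE M21 transcripts on both strands. The coding alignments, longer windows, shares of promoters with repeated CCAAT and ratios between genes were added after values were seen. Read depth is unknown, so no counting interval or floor is given. A comparison with 1 other gene is not reported here.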

Additional observations from a re-analysis of the deposited data

How the results depend on the processing

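Of 50 recomputed log2 ratios of the 5 genes, 39 stayed within the spread between replicates of the reported value, 11 moved by more and 0 turned direction. Most of the 50 only left out 1 library. Each was held against the gene's own spread, so genes with a wide spread stayed within it more easily. Division by library medians moved all 5 genes by more than that spread. Because the libraries of the diets did not overlap for these genes, only division by library medians could have turned a direction. The other settings could not. With each library's median over the 54 rows divided out, the log2 ratios were -1.92 (Oat), -1.70 (Selenbp1), 0.75 (Me3), 0.57 (Abcd2) and 0.22 (Aoc2). Adding 1 FPKM before the log gave differences of 0.35 (Me3), 0.40 (Abcd2), 0.32 (Aoc2) and -0.72 (Selenbp1), and with 0.1 FPKM that of Me3 was 1.09; a pseudocount by its construction shrinks the change of low genes. Leaving out 1 library gave -1.57 to -0.85 for Oat, 1.23 to 1.58 for Me3, -1.10 to -0.88 for Selenbp1, 0.87 to 1.61 for Abcd2 and 0.73 to 1.14 for Aoc2. The lowest for Oat in size came without control diet replicate 1.

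Rows with no overlap between diets numbered 33 higher and 18 lower. Only 26 rows had a mean of at least 1 FPKM, and among these 26 they were 20 and 4. The smaller counts thus follow the smaller number of rows. Of the 3 members that were higher, 0 passed that minimum. After division by library medians 21 rows were higher, 38.9% of the table; the cause was not tested. With 1 library left out, the rows with no overlap were 33 to 36 higher and 18 lower in every case. Leaving out a library can only keep or add such rows, so these counts could not fall. The order of levels on the high-fat diet kept 3 of 5 genes in place without replicate 1 or without replicate 3, where Abcd2 and Aoc2 changed places, and 5 without replicate 2. Of the 10 most alike rows, 1 was found again with a pseudocount of 1 FPKM, 3 after division by library medians and 5 among rows of at least 1 FPKM. No paired analysis was possible because the labels give the libraries of the diets no shared numbers. Unknown depth limits Me3, Abcd2 and Aoc2 most, all below 1 FPKM.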

Other observations

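The ratio of Oat to Selenbp1 within a library, singled out after its values were seen, was 1.72, 1.70 and 1.70 in the high-fat libraries, with an SD of 0.630% of the mean. In the control libraries it was 3.02, 1.49 and 1.88, with an SD of 37.3% of the mean. The diets overlapped, and control diet replicate 1, which holds the highest Oat level, gave the highest ratio. The spread of Oat itself was 7.34% of the mean in high-fat and 51.2% in control libraries. With 3 libraries per diet no test of this difference in spread was run.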
